A study of Mus musculus with 34 samples.

Results

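*Hoxa5*, *Hoxa6*, *Hoxa7*, *Hoxa9*, *Hoxd8* and *Hoxd9* are the HoxA and HoxD genes of paralog groups 5 to 9, from the middle of the clusters. They were read as the rows that carry these 6 symbols, of 22040 protein-coding genes in the mRNA-seq table. The 6 genes were chosen by the measured values of the same table, with the contrast between the genotypes in view. Their difference between the groups is therefore given as a description, with counts of calls beside the share over all genes and with no *p* value. RNA was taken from limb buds at E11.5, with 3 libraries from WT mice and 3 from CKO mice. In the CKO group the floxed *Hnrnpk* alleles (*Hnrnpk* fl/fl) were deleted by Prrx1-Cre, a recombinase driven by a *Prrx1* limb enhancer in the limb bud mesenchyme. The ectoderm, the blood vessels and the blood cells keep *Hnrnpk* in this model. The labels name the genotypes Hnrnpk WT and Hnrnpk CKO and do not say whether fore- and hindlimb buds, or the buds of several embryos, were pooled. Nothing in the labels says that the libraries of a group came from separate litters, so every *p* value below measures the spread between these samples alone. The series has 34 samples, of which these 6 RNA-seq libraries were analysed here.

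Hox genes code for homeodomain transcription factors, and they lie in 4 clusters, HoxA to HoxD, in an order that matches their order of expression along the body and the limb. Genes at the same place in different clusters are paralogs and share a group number. In the limb bud, genes of groups 10 to 13 mark progressively more distal segments, while groups 5 to 9 act earlier and more proximally. Group 9 genes set the posterior identity of the forelimb field upstream of *Hand2* and *Shh*, and group 5 genes limit *Shh* to its posterior domain. *Hnrnpk* codes for an RNA- and DNA-binding protein that prefers C-rich sequence. In the GENCODE vM21 annotation of GRCm38, the HoxA genes lie on the minus strand of chromosome 6, with *Hoxa5* (ENSMUSG00000038253) at chr6:52201754-52204587, *Hoxa6* (ENSMUSG00000043219) at chr6:52206288-52208722, *Hoxa7* (ENSMUSG00000038236) at chr6:52214491-52221854 and *Hoxa9* (ENSMUSG00000038227) at chr6:52223100-52231089. The HoxD genes lie on the plus strand of chromosome 2, with *Hoxd9* (ENSMUSG00000043342) at chr2:74697727-74700208 and *Hoxd8* (ENSMUSG00000027102) at chr2:74704615-74707933.

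The promoters of the 6 genes differed in base composition and shared few of the motifs searched. The window was the 250 bases before the RefSeq start of each gene on GRCm38.p6, and all 6 genes had an entry. The GC content was 63.6% for *Hoxa5*, 65.2% for *Hoxa6*, 54.8% for *Hoxa7*, 49.6% for *Hoxa9*, 44.4% for *Hoxd8* and 65.2% for *Hoxd9*, against a median of 52.4% over 32851 promoters. The sequence CCCTCCC, a C-rich run of the kind that hnRNPK binds, was found in *Hoxa7* (1 copy) and *Hoxa9* (2 copies that overlap each other), on the strand opposite to the gene. It occurred in 19.7% of all promoters. The CCAAT box was found in *Hoxa5*, *Hoxa6* and *Hoxd8* and in 33.8% of all promoters. The CTCF core CAGGGGGC (2.52% of all promoters), the HOX-PBX site TGATTNAT (2.82%) and the TATA box TATAAA (12.4%) were found in none of the 6 windows. Both strands were searched for all 5 motifs, and a match is a run of letters and not a binding site. The promoters of *Hoxd8*, with the largest difference between the genotypes, *Hoxa9*, with the C-rich runs, and *Hoxa5*, with a difference near its standard error, are printed 5′ to 3′ in the direction of the gene, with matches to the 5 motifs in capitals.
*Hoxd8* promoter (chr2:74704365-74704614, plus strand): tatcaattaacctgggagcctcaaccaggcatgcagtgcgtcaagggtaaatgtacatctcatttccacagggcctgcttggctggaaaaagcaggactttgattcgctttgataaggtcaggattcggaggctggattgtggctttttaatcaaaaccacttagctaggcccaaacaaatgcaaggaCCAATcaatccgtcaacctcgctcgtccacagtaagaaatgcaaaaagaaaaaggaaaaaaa
*Hoxa9* promoter (chr6:52227371-52227620, minus strand): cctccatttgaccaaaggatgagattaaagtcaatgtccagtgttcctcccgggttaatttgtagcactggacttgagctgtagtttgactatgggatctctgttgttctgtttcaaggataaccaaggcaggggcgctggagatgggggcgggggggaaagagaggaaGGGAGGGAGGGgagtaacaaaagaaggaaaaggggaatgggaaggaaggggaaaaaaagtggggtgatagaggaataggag
*Hoxa5* promoter (chr6:52204588-52204837, minus strand): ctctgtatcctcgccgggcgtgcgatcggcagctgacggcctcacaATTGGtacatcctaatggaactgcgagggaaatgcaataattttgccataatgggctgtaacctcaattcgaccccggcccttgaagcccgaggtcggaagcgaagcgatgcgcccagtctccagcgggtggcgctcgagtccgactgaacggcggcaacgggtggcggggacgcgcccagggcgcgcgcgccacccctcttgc
The *Hoxa9* capitals span 81 to 71 bases before the start and hold the complement of both C-rich runs. The capitals mark the CCAAT box 62 to 58 bases before the start of *Hoxd8*, and its complement 204 to 200 bases before the start of *Hoxa5*. RefSeq places this start of *Hoxd8* at a short upstream exon, and further transcripts of the gene start downstream of it. The windows of *Hoxa7* and *Hoxa9* lie within the GENCODE spans of these genes, since other transcripts start upstream of them.

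The unit of the table was FPKM, the reads of a gene divided by its exon length and by the library size, so levels can be compared between genes per length. Between 17140808 and 24624456 reads fell on the listed genes of a library, as recovered from the values. In CKO replicates 2 and 3 these reads were 1.11 and 1.03 times the size by which the FPKM had been divided. That size may therefore not be the depth there, and the counting options and scaling are not given. *Hnrnpk*, the deleted gene, had 191 ± 5.0 FPKM (SD, n = 3) in WT and 135 ± 7.48 FPKM (SD, n = 3) in CKO, with every CKO library below every WT library. Replicate 1 of both genotypes stood apart from replicates 2 and 3 on the first principal component (52.6% of the variance), and the genotypes separated on the second (26.0%). Of 12305 genes tested with limma, 7 were higher and 1 was lower in CKO at an adjusted *p* value under 0.05. With the replicate number as a block, a pairing that the labels do not state, the counts were 139 and 207. *Hnrnpk* itself was called in neither fit (log2 fold change -0.50, standard error 0.13, adjusted *p* = 0.334 in limma and 0.0575 in the blocked fit). Its CKO mean was 70.6% of the WT mean. The floxed region is only a part of the gene, while the FPKM counts reads over all its exons. The mesenchyme markers *Prrx1*, *Prrx2*, *Twist1*, *Msx1*, *Msx2*, *Lhx2* and *Lhx9* were all present, with summed levels of 286.7 to 292.1 FPKM in WT and 243.1 to 274.8 FPKM in CKO.

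All 6 genes were expressed in WT limb buds, from 25.4 FPKM for *Hoxd9* to 6.76 FPKM for *Hoxa7*. In descending order the WT means were 25.4 ± 4.70 FPKM for *Hoxd9*, 24.5 ± 1.99 for *Hoxa9*, 17.2 ± 2.48 for *Hoxa5*, 8.66 ± 6.24 for *Hoxa6*, 7.47 ± 0.584 for *Hoxd8* and 6.76 ± 0.858 for *Hoxa7* (SD, n = 3). The group 9 genes were the highest and overlapped each other, *Hoxa9* and *Hoxa5* did not overlap, and every later pair of neighbours in the order overlapped. Within each of the 3 WT libraries, though, *Hoxa5* was above *Hoxa6* and *Hoxd8* above *Hoxa7*. *Hoxa6* had its place through replicate 1, and was the lowest of the 6 genes in replicates 2 and 3. In CKO, *Hoxd9* (17.5 ± 4.41 FPKM), *Hoxa9* (15.7 ± 3.69), *Hoxa5* (14.6 ± 4.88) and *Hoxa6* (7.58 ± 5.21) kept this order of means, *Hoxa7* (4.58 ± 1.34) and *Hoxd8* (4.42 ± 0.847) changed places, and every pair of neighbours overlapped. Within each of the 3 CKO libraries, *Hoxd9* was above *Hoxa9*, *Hoxa5* above *Hoxa6* and *Hoxa6* above *Hoxa7*. The levels depend on the exon length, which was 874 bases for *Hoxa6* and 5580 bases for *Hoxa9* with the exons of all transcripts merged, so exons that limb cells do not use lower the value. In bulk tissue, fewer cells of a type and less RNA per cell cannot be told apart.

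**Figure D1:**
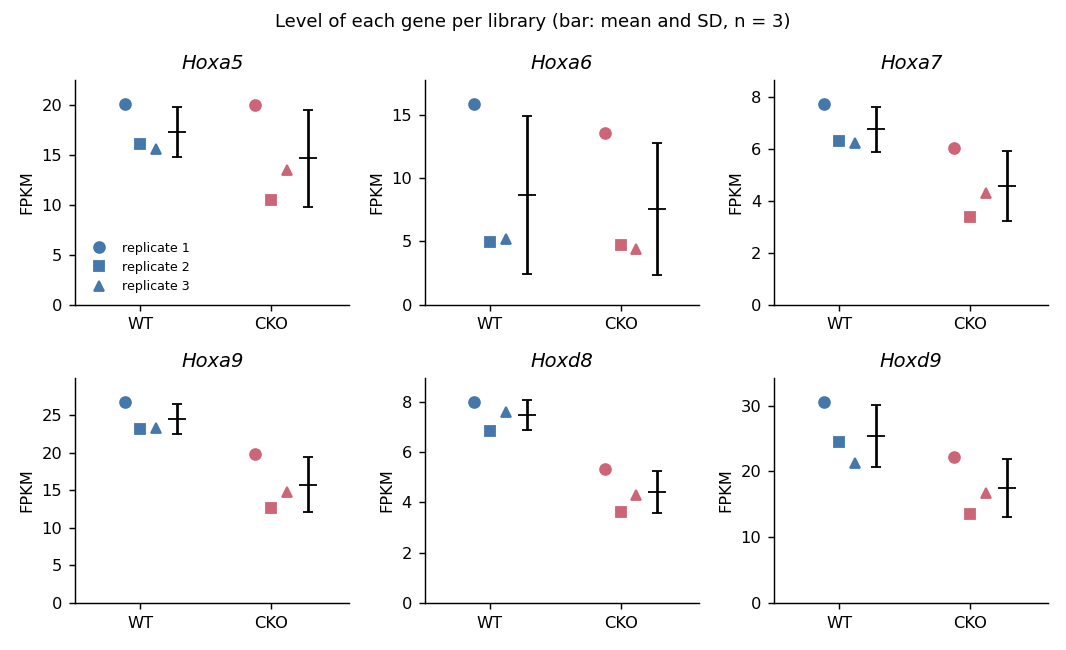
FPKM of *Hoxa5*, *Hoxa6*, *Hoxa7*, *Hoxa9*, *Hoxd8* and *Hoxd9* in each of the 3 WT (blue) and 3 CKO (red) libraries, with the replicate number by symbol and the mean and SD in black. Replicate 1 is the highest library of its genotype for all 6 genes, and the CKO libraries lie below all WT libraries for *Hoxa7*, *Hoxa9* and *Hoxd8*.

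*Hoxa5*, the group 5 gene, takes part in shoulder girdle and lung development. It had 20.1, 16.1 and 15.5 FPKM in WT replicates 1 to 3 and 19.99, 10.5 and 13.4 FPKM in CKO replicates 1 to 3. The groups overlapped, since replicate 1 was almost equal in both genotypes while CKO replicates 2 and 3 lay below all WT libraries. The log2 fold change of CKO over WT was -0.28 (SE, the standard error of the limma fit, 0.23), the second smallest of the 6 in size. It was -0.06 without CKO replicate 2, -0.16 without WT replicate 1 and -0.53 without CKO replicate 1. *Hoxa5* rested on 376 to 723 reads per library.

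The level of *Hoxa6*, the group 6 gene and a patterning gene of the thoracic axis, differed more between replicate numbers than between genotypes. It was 15.9, 4.92 and 5.19 FPKM in WT replicates 1 to 3 and 13.6, 4.72 and 4.41 FPKM in CKO replicates 1 to 3. Replicate 1 exceeded the mean of replicates 2 and 3 by 3.14 times in WT and 2.98 times in CKO, and the groups overlapped. The log2 fold change was -0.17 (SE 0.55), and it turned positive when WT replicate 1 (0.37), CKO replicate 2 (0.06) or CKO replicate 3 (0.11) was left out. *Hoxa6* had the fewest reads, from 79 to 250 per library. In its group 6 paralog *Hoxb6* this ratio was 2.5 in WT and 2.0 in CKO, and in *Hoxc6* it was 0.952 in WT and 1.35 in CKO.

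*Hoxa7*, a patterning gene of the thoracic vertebrae, was lower in CKO in every library. It had 7.75, 6.30 and 6.23 FPKM in WT replicates 1 to 3 and 6.03, 3.40 and 4.30 FPKM in CKO replicates 1 to 3. The gap between the groups was narrow, since CKO replicate 1 lay just under WT replicate 3. The log2 fold change was -0.59 (SE 0.21), and the mean in CKO was 67.7% of that in WT. The exons of *Hoxa7* share 586 bases (20.4% of their length) with the antisense transcript *Hoxaas3*. The library kit keeps the strand, but whether the counting used it is not given in the sources used here.

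*Hoxd8*, the single group 8 gene of these clusters, had the largest difference between the genotypes. Its level was 7.99, 6.84 and 7.59 FPKM in WT replicates 1 to 3 and 5.32, 3.64 and 4.29 FPKM in CKO replicates 1 to 3. The lowest WT library was above the highest CKO library, and the spread within WT was small. The log2 fold change was -0.76 (SE 0.16), and the CKO mean was 59.1% of the WT mean. Of the tested genes, 0.918% had a lower log2 fold change than *Hoxd8*. This share was 1.7% for *Hoxa9*, 2.5% for *Hoxa7*, 2.9% for *Hoxd9*, 12.6% for *Hoxa5* and 22.2% for *Hoxa6*. The genes were chosen with this contrast in view, so the shares describe them and nothing is read from them. For *Hoxd8* the value ranged from -0.90 to -0.63 when single libraries were dropped.

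The group 9 genes *Hoxa9* and *Hoxd9* were the most abundant of the 6. *Hoxa9* had 26.8, 23.2 and 23.4 FPKM in WT replicates 1 to 3 and 19.8, 12.6 and 14.8 FPKM in CKO replicates 1 to 3. All CKO values were below all WT values, with a log2 fold change of -0.65 (SE 0.18) and a CKO mean at 64.4% of the WT mean. *Hoxa9* also had the most reads, from 1351 to 3104 per library, and 85 of its exon bases are those of the microRNA gene *Mir196b*. *Hoxd9* had 30.5, 24.5 and 21.3 FPKM in WT replicates 1 to 3 and 22.2, 13.5 and 16.7 FPKM in CKO replicates 1 to 3. Its groups overlapped by a single pair, CKO replicate 1 above WT replicate 3. The log2 fold change of *Hoxd9* was -0.55 (SE 0.21), and 1 library left out at a time moved it between -0.74 and -0.38.

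All 6 genes had a lower mean in CKO, with a median log2 fold change of -0.57 against 0.00 over all 12305 tested genes. All 6 passed the filter on low values, a mean of at least 0.5 FPKM, with every library at 3.40 FPKM or above. The CKO libraries lay below all WT libraries for 3 of the 6 genes (*Hoxa7*, *Hoxa9* and *Hoxd8*), and 8.86% of all tested genes had this order. At an adjusted *p* value under 0.05 in limma none of the 6 was called, where 0.0650% of all tested genes were called and 0.00813% were called lower. At an unadjusted *p* value under 0.05 the count was 4 of 6, where 8.31% of all tested genes passed, and voom on the recovered reads called 0, where it called 0.0813% of the genes it tested. With the replicate block 4 of the 6 genes (*Hoxa7*, *Hoxa9*, *Hoxd8* and *Hoxd9*) were called, where 2.81% of all tested genes were called and 1.68% were called lower. The block left the log2 fold changes as they were and gave standard errors of 0.11 to 0.13. Since the genes were chosen for this contrast, these counts describe them and nothing is read from them. Leaving the globin genes out and scaling the remaining FPKM to the same sum in every library moved the median of all genes to -0.10 and that of the 6 genes to -0.68. Both steps were made together, so their parts were not told apart.

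The difference was in the same direction in each pair of libraries with the same replicate number, a pairing that the labels do not state. In replicate 1 the CKO library was lower than the WT library for all 6 genes, with a median difference of -0.39 on the log2(FPKM + 0.1) scale and a range from -0.58 for *Hoxd8* to -0.01 for *Hoxa5*. Replicate 2 had a median of -0.86, with *Hoxd8* at -0.89, *Hoxa7* and *Hoxa9* at -0.87, *Hoxd9* at -0.85, *Hoxa5* at -0.62 and *Hoxa6* at -0.06. In replicate 3 the median was -0.44 and the range -0.81 for *Hoxd8* to -0.21 for *Hoxa5*. The medians over all tested genes were -0.01, 0.00 and 0.00 for replicates 1, 2 and 3. CKO replicate 2 was the lowest CKO library for 5 of the 6 genes, all but *Hoxa6*.

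**Figure D2:**
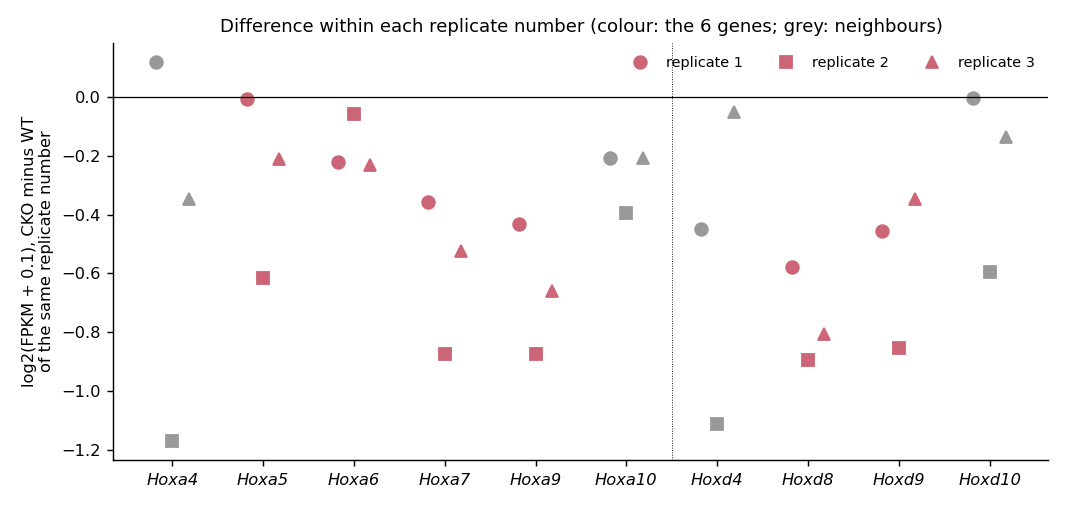
Difference in log2(FPKM + 0.1) between the CKO and the WT library of the same replicate number, for the 6 genes (red) and their neighbours in the clusters (grey), HoxA to the left and HoxD to the right of the dotted line. All red points lie below 0, and *Hoxa4* and *Hoxd4* in replicate 2 lie lowest.

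The neighbours on the 5′ side, where the distal limb genes lie, had log2 fold changes nearer to 0 than *Hoxa9* and *Hoxd9*, without a test of the difference. *Hoxa10* had 64.1, 64.2 and 58.4 FPKM in WT and 55.6, 48.8 and 50.5 FPKM in CKO, with a log2 fold change of -0.27 (SE 0.12, adjusted *p* = 0.601 in limma). All CKO libraries were below all WT libraries for *Hoxa10*. *Hoxd10* had 37.7, 39.9 and 37.1 FPKM in WT and 37.7, 26.4 and 33.7 FPKM in CKO, and its groups overlapped (-0.24, SE 0.15, adjusted *p* = 0.726). On the 3′ side *Hoxa4* had 2.19, 2.78 and 1.90 FPKM in WT and 2.39, 1.18 and 1.47 FPKM in CKO (-0.46, SE 0.27, adjusted *p* = 0.713). *Hoxd4* had 1.03, 0.652 and 0.358 FPKM in WT and 0.731, 0.248 and 0.341 FPKM in CKO (-0.54, SE 0.43, adjusted *p* = 0.818), and it shares exon bases with *Hoxd3*. Both 3′ neighbours overlapped between the groups and rested on 14 to 106 reads per library.

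Within each cluster the log2 fold change of tested genes was lowest in groups 7 and 9 (HoxA) and 8 and 9 (HoxD). It was above 0 at the 5′ end of both clusters. The 6 genes were chosen with this contrast in view, so this order describes them and nothing is read from it. *Hoxd4* (-0.54, SE 0.43) lay next to *Hoxd9* (-0.55, SE 0.21). *Hoxa4* (-0.46, SE 0.27) was lower than *Hoxa5* (-0.28) and *Hoxa6* (-0.17). Of 13 other HoxA and HoxD genes that were read, 11 were tested, and 9 had a lower and 2 a higher mean in CKO, with a median log2 fold change of -0.24 and none called. The 2 with a higher mean were *Hoxa13* (0.38) and *Hoxd13* (0.20), the genes of the digit territory, and *Hoxd13* was at -0.17 without WT replicate 1. None of the 11 had an unadjusted *p* value under 0.05 in limma. The untested *Hoxd1* and *Hoxd3*, named after their values were seen, had CKO means at 39.7% and 31.5% of their WT means, on 1 to 6 reads per CKO library. Whether the 6 genes differed from the rest of their clusters was not tested.

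**Figure D3:**
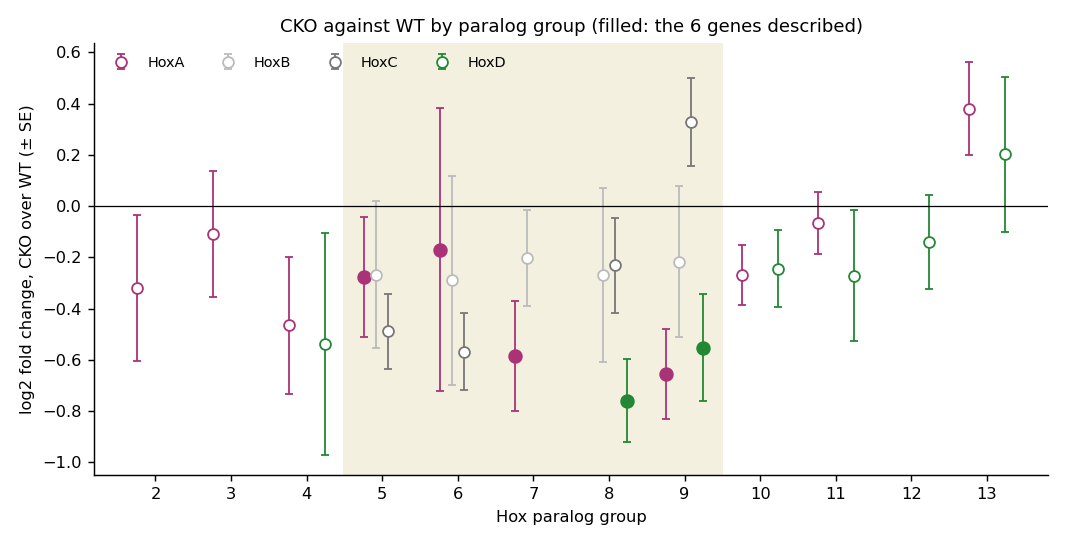
Log2 fold change of CKO over WT with its standard error for tested Hox genes of the HoxA and HoxD clusters and of HoxB and HoxC groups 5 to 9, by paralog group, with the 6 genes filled. The filled points run from -0.76 (*Hoxd8*) to -0.17 (*Hoxa6*), *Hoxc9* (0.33) lies above 0 within the shaded groups, and *Hoxa13* is the highest point at 0.38.

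The HoxB and HoxC paralogs of groups 5 to 9 had lower mean levels over the 6 libraries than any of the 6 genes, and 8 of the 9 also had a lower mean in CKO. None of the 9 was called by limma or by voom (2 had an unadjusted *p* value under 0.05 in limma), their median log2 fold change was -0.27 and their range -0.57 to 0.33. The highest HoxC paralog, *Hoxc6*, had 5.60, 5.76 and 5.998 FPKM in WT and 4.73, 3.45 and 3.55 FPKM in CKO, with no overlap. Its log2 fold change was -0.57 (SE 0.15, adjusted *p* = 0.358 in limma but 0.0410 in the blocked fit). The highest HoxB paralog, *Hoxb9*, had 6.21, 3.54 and 2.94 FPKM in WT and 4.53, 2.76 and 3.26 FPKM in CKO, and the groups overlapped (-0.22, SE 0.29, adjusted *p* = 0.890, and 0.09 without WT replicate 1). *Hoxc9*, named after its values were seen, was the exception, with 4.15, 3.58 and 3.87 FPKM in WT and 6.07, 3.998 and 4.76 FPKM in CKO (0.33, SE 0.17, adjusted *p* = 0.681).

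Read by paralog group, the HoxA and HoxD genes gave most of the mRNA of groups 5, 7, 8 and 9. In group 9, *Hoxa9* and *Hoxd9* together made up 84.7% to 87.0% of the summed FPKM of 4 genes in the WT libraries and 79.5% to 79.9% in the CKO libraries, with no overlap. *Hoxd8* made up 66.7% to 72.3% of group 8 in WT and 59.2% to 64.8% in CKO, again with no overlap. Their paralogs *Hoxb8*, *Hoxc8*, *Hoxb9* and *Hoxc9* had log2 fold changes of -0.27, -0.23, -0.22 and 0.33. *Hoxa7* made up 75.8% to 80.6% of group 7 in WT and 70.5% to 76.0% in CKO, and *Hoxa5* 79.7% to 82.8% and 80.3% to 85.3% of group 5. The share of *Hoxa6* in group 6 was 61.5% in WT replicate 1 and 63.7% in CKO replicate 1, and between 39.1% and 48.6% in the other 4 libraries. In groups 5, 6 and 7 the shares overlapped between the genotypes. The HoxA and HoxD genes were chosen with this contrast in view, so the shares describe them and nothing is read from them. The summed level fell outside the WT range in all CKO libraries only for group 8, from 10.7 ± 1.13 FPKM in WT to 7.17 ± 1.6 FPKM in CKO (SD, n = 3). For group 9 the sums were 58.0 ± 8.55 FPKM in WT and 41.7 ± 10.1 FPKM in CKO (SD, n = 3), with CKO replicate 1 inside the WT range.

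**Figure D4:**
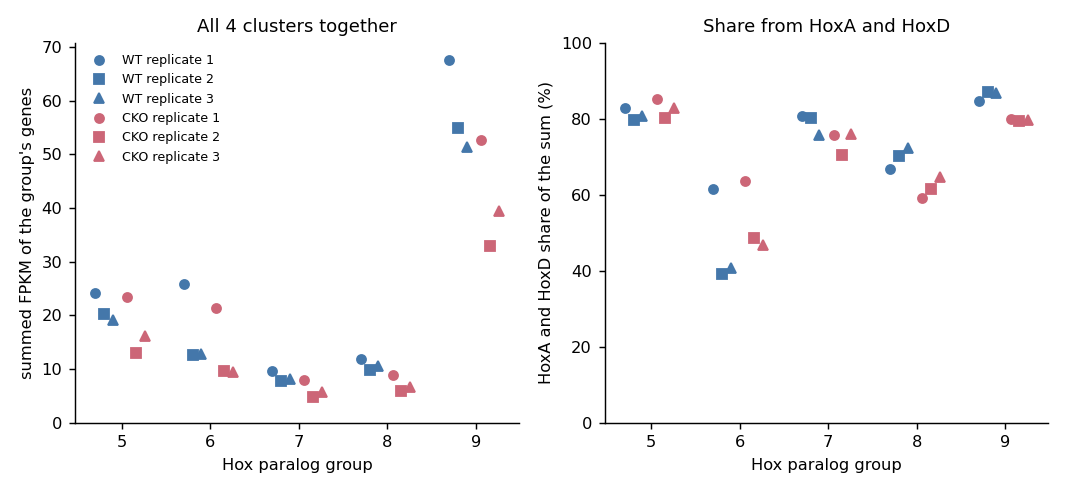
Left, summed FPKM of all genes of paralog groups 5 to 9 over the 4 clusters, and right, the percent of that sum from the HoxA and HoxD genes, for each WT (blue) and CKO (red) library. The CKO shares lie below all WT shares in groups 8 and 9 and overlap them in groups 5, 6 and 7. The HoxA and HoxD genes were chosen with this contrast in view. In group 6 the 2 replicate 1 libraries stand above the rest.

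Genes that work with Hox proteins or act on the clusters were read beside the 6 genes. Of the 9 Hox cofactors of the Pbx, Meis and Pknox families, 8 had a lower and 1 a higher mean in CKO, with a median log2 fold change of -0.11. None was called by limma, at an adjusted or an unadjusted threshold. *Meis2*, a proximal limb cofactor, had the largest difference, with 11.01, 6.28 and 6.27 FPKM in WT and 8.58, 5.26 and 5.16 FPKM in CKO (-0.29, SE 0.28, adjusted *p* = 0.846), and it was at -0.03 without WT replicate 1. Of 17 regulators of the clusters (Cdx factors, Gdf11, trithorax and Polycomb proteins, Ctcf and the retinoic acid pathway), 14 were tested, 7 higher and 7 lower, with a median of 0.00 and none called at either threshold, and *Cdx4* was at 0 in all libraries. *Aldh1a2*, which makes retinoic acid, had 4.93, 11.7 and 11.3 FPKM in WT and 2.73, 7.17 and 7.30 FPKM in CKO. Its log2 fold change was -0.72 (SE 0.45, adjusted *p* = 0.739 in limma but 0.00497 in the blocked fit, and -0.26 without CKO replicate 1), with replicate 1 low in both genotypes where it was high for the 6 Hox genes.

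Among 11 limb genes linked to Hox groups 5 to 9, 6 had a higher and 5 a lower mean in CKO, with a median log2 fold change of 0.03, none called by limma or voom and 1 at an unadjusted *p* value under 0.05. *Tbx5*, the forelimb T-box gene whose limb enhancer is controlled by Hox proteins, had 20.3, 19.1 and 19.2 FPKM in WT and 15.3, 7.30 and 9.58 FPKM in CKO, with no overlap. Its log2 fold change was -0.93 (SE 0.24, adjusted *p* = 0.358 in limma but 0.00734 in the blocked fit). Without CKO replicate 1 *Tbx5* was called in limma (-1.21, adjusted *p* = 0.0338), where 23 of 12311 tested genes were called. It was not called with any other single library left out. *Alx4*, an anterior limb homeobox gene, had 16.3, 9.56 and 9.92 FPKM in WT and 11.4, 6.27 and 7.48 FPKM in CKO (-0.51, SE 0.27, adjusted *p* = 0.696 but 0.0266 in the blocked fit, and -0.26 without WT replicate 1). The posterior gene *Hand2* and its target *Shh*, named after their values were seen, had log2 fold changes of -0.35 (SE 0.19, adjusted *p* = 0.694) and 0.03 (SE 0.21, adjusted *p* = 0.983).

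Markers of limb type and of other cells were measured beside these genes, and their part in the differences was not tested. The hindlimb list (*Pitx1*, *Tbx4*, *Isl1*) summed to 67.8 to 73.1 FPKM in WT and 73.8 to 83.0 FPKM in CKO, so that all CKO sums were above all WT sums. *Pitx1* alone of the list had every CKO library above every WT library (37.7, 46.6 and 39.8 FPKM in WT and 48.9, 47.9 and 49.9 FPKM in CKO), while *Tbx4* overlapped, with a log2 fold change of 0.00 (SE 0.15). *Isl1* had the largest difference of this list (0.30, SE 0.24, adjusted *p* = 0.814 in limma). The proximal limb list (*Meis1*, *Meis2*, *Shox2*, *Irx3*, *Irx5*) summed to 115 to 124 FPKM in WT and 101.6 to 122.6 FPKM in CKO, and *Irx3* was called lower with the replicate block alone (-0.55, SE 0.29, adjusted *p* = 0.680 but 0.0266 in the blocked fit). In the mesenchyme list *Prrx2* had the largest difference (-0.20, SE 0.13, adjusted *p* = 0.741).

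Hox genes of groups 5 to 9 are also expressed in the neural tube and somites of the trunk, and the neural tube markers were near 0. The 6 neural tube markers summed to under 0.4 FPKM in every library (0.219 to 0.351 in WT and 0.0992 to 0.176 in CKO), none passed the filter and *Neurog2* was at 0 in all libraries. The 5 somite markers summed to 15.0 to 19.1 FPKM in WT and 13.2 to 15.5 FPKM in CKO. Of these, *Pax1* had 3.75, 4.29 and 4.07 FPKM in WT and 3.26, 1.55 and 2.26 FPKM in CKO (-0.81, SE 0.25, adjusted *p* = 0.430 in limma but 0.0414 in the blocked fit). The groups overlapped for *Tcf15* (-0.06, SE 0.17), *Meox1* (-0.15, SE 0.17) and *Pax9* (-0.30, SE 0.50). *Uncx* was near 0 in every library, at 0.0705 FPKM or less, and was not tested.

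The summed levels of the muscle precursor, ectoderm, macrophage and red blood cell lists were lowest in replicate 1 of each genotype, but single genes differed. *Pax3* of the muscle list was highest there, with 3.30, 1.13 and 1.32 FPKM in WT and 3.14, 1.65 and 2.01 FPKM in CKO. In WT, replicate 1 was at 0.321 (*Krt5*) and 0.162 (*Krt14*) times the mean of replicates 2 and 3. For the other ectoderm genes this ratio was 0.929 (*Epcam*), 1.01 (*Trp63*) and 0.863 (*Wnt7a*). Muscle precursor markers summed to 8.96 FPKM in WT replicate 1 and to 19.7 to 27.7 FPKM in the other 5 libraries, with *Myod1* the largest difference (0.68, SE 0.43, adjusted *p* = 0.739). The ectoderm list was at 20.1 and 26.4 FPKM in replicate 1 of WT and CKO and at 42.3 to 49.3 FPKM in the other libraries, which is the opposite order to *Hoxa6*, and *Krt5* differed most (0.39, SE 0.46, adjusted *p* = 0.874). Endothelial markers had 15.5 to 24.3 FPKM in WT and 12.1 to 17.9 FPKM in CKO (*Kdr* -0.45, SE 0.25, adjusted *p* = 0.705), and macrophage markers 7.28 to 11.5 and 7.87 to 13.2 FPKM (*Adgre1* 0.47, SE 0.42, adjusted *p* = 0.837). Red blood cell genes had the widest range, from 28957 FPKM in CKO replicate 1 to 137920 FPKM in CKO replicate 2, the library in which 5 of the 6 Hox genes were lowest in CKO (*Hba-a2* 0.55, SE 0.44, adjusted *p* = 0.818). Several of these differences rested on WT replicate 1, and without it they were 0.10 for *Myod1*, -0.15 for *Krt5*, -0.18 for *Kdr* and 0.12 for *Adgre1*, while *Hba-a2* was at 0.21 without CKO replicate 2.

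**Figure D5:**
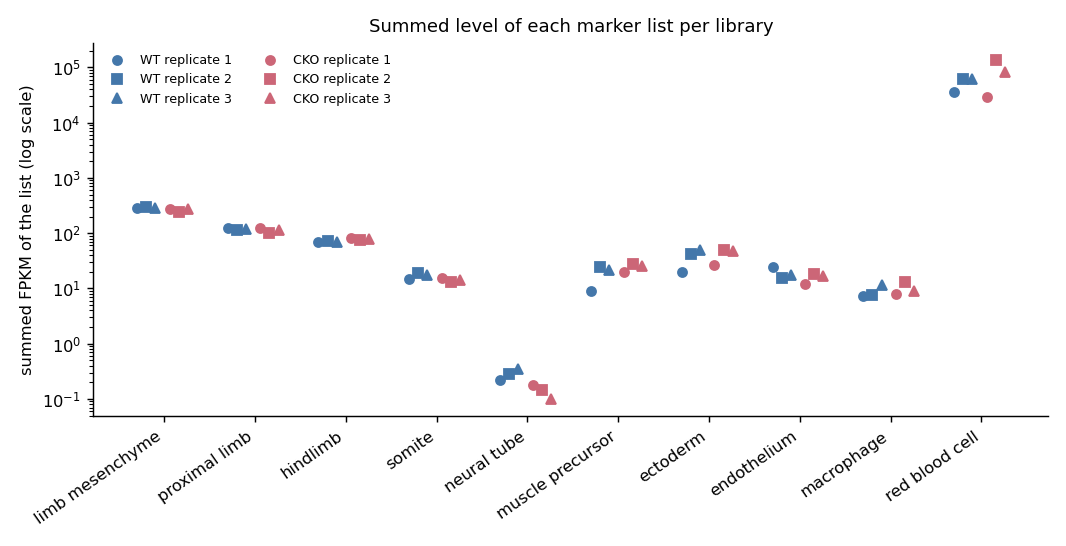
Summed FPKM of each list of marker genes (log axis) in each WT (blue) and CKO (red) library, with the replicate number by symbol. The neural tube list stays under 0.4 FPKM in every library, and the sums of the muscle precursor, ectoderm, macrophage and red blood cell lists are lowest in replicate 1 of each genotype.

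Among the genes whose profile over the 6 libraries was nearest to the mean profile of the 6 Hox genes were *Slc9a5*, *Pip5k1c*, *Lmx1b* and *Gem*. Likeness was the root mean square difference of log2(FPKM + 0.1) centred on each gene, which was 0.06 to 0.08 for these 4 genes, against a median of 0.43 over 12305 genes. *Lmx1b*, the dorsal limb identity gene, had 34.3, 23.6 and 25.7 FPKM in WT and 28.1, 15.2 and 19.9 FPKM in CKO. It shared the high replicate 1 and the low CKO replicate 2. Among the 6 genes themselves, *Hoxa7* and *Hoxd9* were nearest to their mean profile (0.09 each), followed by *Hoxa5* (0.13), *Hoxa9* (0.15) and *Hoxd8* (0.21), and *Hoxa6* was farthest (0.50), above the median of all genes.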

How the data were processed

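RNA-seq of E11.5 limb buds from 3 WT and 3 CKO replicates was used. The submitters' processing notes name cutadapt 2.5, HISAT2 2.1.0, featureCounts 1.6.3 and the build mm10. The authors deposited FPKM, 1 column per library; their annotation, counting options and scaling are not given in the sources used here. Of the genes, 99.5% were in GENCODE vM21 (the 21933 genes used for lengths and positions), and for 91.5% of these FPKM times exon length gave whole reads in all libraries, within 0.1 reads. The sizes by which the FPKM had been divided were 18026153 to 23935435 and were given to voom. They may not all be depths, since in CKO replicates 2 and 3 more reads fell on genes than this size.

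The 12305 genes whose FPKM averaged at least 0.5 were compared with limma 3.58.1 in R 4.3.3 (trend, log2(FPKM + 0.1), Benjamini-Hochberg adjustment over all genes), which was tested on simulated data. Fold changes on this scale understate the change of low genes. Libraries of the same number were taken as pairs, because their deviations from the group means correlated across genes (0.636, 0.443 and 0.266 for numbers 1, 2 and 3, all above 0.1). What a number stands for is not in the labels. With numbers 2 and 3 swapped the correlations were higher, at 0.495 for WT replicate 2 with CKO replicate 3 and 0.31 for WT replicate 3 with CKO replicate 2. The correlations and the limit of 0.1 therefore cannot decide how numbers 2 and 3 pair. The simulated data were built with deviations shared by replicate number, so they cannot decide it either. All counts and *p* values of the blocked fits rest on the pairing by number.

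The 6 genes and the gene lists were chosen with earlier results of these data known. Named genes are the 6, *Hnrnpk*, their neighbours in the clusters, the highest HoxB and HoxC paralog, list genes called in the fit or its replicate block (otherwise the largest fold change) and the 5 nearest profiles. Some genes that this rule selects are not reported here. Alternatives were other pseudocounts (0.5, 1), filters (none, a mean of at least 1), scalings (median ratio, globin genes left out with the remaining FPKM set to equal sums), no trend, the block, voom, and each library left out. Voom with the block and replicates 2 and 3 alone were added after the data were seen.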

Additional observations from a re-analysis of the deposited data

How the results depend on the processing

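The median log2 fold change of the 6 Hox genes (-0.57) kept its sign under every alternative and was between -0.77 and -0.39 with 1 library left out. *Hoxa6* alone changed sign, when WT replicate 1 (0.37), CKO replicate 2 (0.06) or CKO replicate 3 (0.11) was left out. *Hoxa5* ranged from -0.53 (without CKO replicate 1) to -0.06 (without CKO replicate 2). The median WT level of the 6 genes was 12.9 FPKM, 11.5 to 14.2 with 1 WT library left out and 17.3 with the globin genes left out of the scaling, which raises all values. Over all genes 8 were called, 4 with the globin genes left out, 346 with the replicate block, 651 with voom and the block, and 1863 in replicates 2 and 3 alone. With 1 library left out the count was 1 to 23: 23 without CKO replicate 1, 7 without WT replicate 1, 3 without WT replicate 2 and 1 without each of WT replicate 3, CKO replicate 2 and CKO replicate 3. With the block 4 of the 6 genes were called, where 346 of 12305 tested genes were called. Voom and the block also called 4 of the 6, where it called 651 of 12294 genes. Replicates 2 and 3 alone, added after the data were seen, gave 5 of the 6, where 1863 of 12319 genes were called. Under the other alternatives 0 of the 6 were called. Since the 6 genes were chosen for this contrast, nothing is read from these counts. In the 5 related gene lists 0 genes were called, 4 with the block, 4 with voom and the block (in each case *Aldh1a2*, *Alx4*, *Hoxc6* and *Tbx5*), 10 in replicates 2 and 3 alone, and 0 to 1 with 1 library left out (*Tbx5*, without CKO replicate 1). The causes of these changes were not tested. *Hoxa6* had the fewest reads of the 6 genes, with 79 in CKO replicate 2, where 21190263 reads fell on the listed genes.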
